A study of Homo sapiens with 9 samples.

Results

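sh1-*TUG1* is a HepG2 line that carries the first of 2 short hairpin RNAs against *TUG1*, a long non-coding RNA, and the comparison described here sets it against sh-Con, the HepG2 line with a control hairpin. The comparison was chosen by its count columns, 3 libraries for each line, and takes in 6 of the 9 libraries of the study and all 13017 rows of their table. HepG2 is an established human hepatocellular carcinoma cell line. The study asked which pathways change in it when *TUG1* is depleted, and the wider response outside the glycolytic enzymes is given here. The labels give the genotype as WT for sh-Con and as *TUG1* knockdown for sh1-*TUG1*, and both grew in low-glucose medium with fetal bovine serum. Per the methods of the study, the hairpins sit in the doxycycline-inducible lentiviral vector Tet-pLKO-Puro, each hairpin is represented by 1 transgenic line, and the 3 libraries of a line are technical replicates. The dose and duration of doxycycline for these libraries are not given in the sources used here. The spread between libraries may therefore be technical, and the hairpin cannot be told apart from other differences between the 2 lines. *TUG1* itself was not analysed here, so the labels were not checked against the target.

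Liver cells secrete most of the proteins of blood plasma, among them albumin, fibrinogen, complement factors and carriers of hormones, lipids and iron. The same cells take up sugars, amino acids and metals through solute carriers, store triglyceride in droplets, and hold an iron balance that the peptide hormone hepcidin governs. Several stress programmes act on these tasks: the unfolded protein response adjusts folding capacity in the endoplasmic reticulum, NRF2 drives antioxidant genes, and hypoxia-inducible factors switch on genes for low oxygen, which include secreted factors, prolyl hydroxylases and mitophagy receptors as well as glycolytic enzymes.

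The 6 libraries held 33054291 to 36958812 counts. All levels in single libraries are CPM, counts scaled to a common library size with TMM normalization. Adjusted p values come from the quasi-likelihood test of edgeR and were adjusted by the Benjamini–Hochberg method for all 13017 rows. A gene rose or fell where its adjusted p was under 0.05, and it was a DEG where the fold change was over 1.5 as well. An exact permutation test of 3 libraries against 3 cannot go below p = 0.1 for a single gene, so such tests were not used. The hepatocyte markers were all among the rows tested, 13 of 13, with a summed level of 52040.9 to 54679.2 CPM in sh-Con and 55140.0 to 57553.5 CPM in sh1-*TUG1*. Of the markers of other liver cells, 3 of 13 for leukocytes, 2 of 9 for endothelium, 3 of 11 for stellate cells and 6 of 9 for cholangiocytes were among the rows tested. The endothelial markers summed to 8.9 to 9.5 CPM in sh-Con and 11.4 to 12.4 CPM in sh1-*TUG1*, and the stellate cell markers to 59.5 to 63.3 and 78.8 to 84.0 CPM. *PTPRC*, *CD3E* and *CDH5*, which define leukocytes, T cells and endothelium, were not among the rows tested. The leukocyte markers, mostly *LYZ* for lysozyme, summed to 937.4 to 1156.8 and 1169.6 to 1260.7 CPM, and the cholangiocyte markers to 1044.9 to 1110.6 and 903.8 to 930.2 CPM, and the part of these levels in the results was not tested. The labels name only the HepG2 line for these libraries. In bulk libraries, fewer cells that express a gene and less RNA per cell cannot be told apart.

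Over all rows, 12.5% rose and 12.3% fell, 24.8% together, and the median log2(fold change) was 0.003 with an SD of 0.344. The 1633 genes that rose were 1087, 1017 and 1053 without sh1-*TUG1* replicate 1, 2 and 3, and the 1599 that fell were 1019 and 1028 without replicate 2 and 3. DEGs made up 2.44% of rows in the higher direction and 2.52% in the lower direction, 4.96% in all. Changes over 2-fold were few, with 101 DEGs higher and 111 lower, and 7 and 3 of them passed 4-fold. The libraries of the groups did not overlap in CPM for 41.5% of rows, 21.3% with sh1-*TUG1* higher and 20.2% with it lower. Of the 646 DEGs, 41 of the higher and 59 of the lower were loci without an Ensembl identifier, which are not named here. Among nuclear chromosomes with over 100 genes tested, the median log2(fold change) lay between −0.03 on chromosome 18 and 0.06 on chromosome 16. On chromosome 22, where *TUG1* lies, it was 0.042 over 301 genes. The shares of genes that rose and fell were 19.3% and 7.15% on chromosome 16, and 8.59% and 17.2% on chromosome 18.

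**Figure D1:**
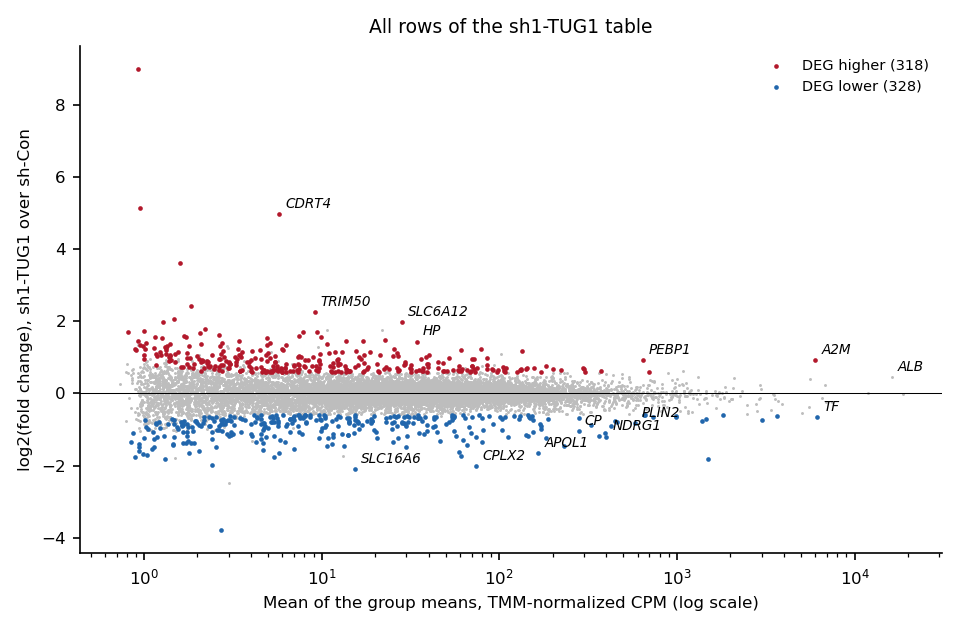
Each point is one of the 13017 rows, with the mean level in CPM on a log axis across and the log2(fold change) of sh1-*TUG1* against sh-Con up the side, DEGs in colour and some genes named. The 318 higher and 328 lower DEGs are spread over a wide range of levels, and most rows sit near the median of 0.003.

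Among the genes with the largest rises was *TRIM50*, a ubiquitin ligase (chromosome 7, 73312539 to 73328082 on the GRCh38 build). Its level was 3.29, 3.14 and 3.04 CPM in the sh-Con libraries and 14.5, 16.1 and 14.6 CPM in the sh1-*TUG1* libraries (log2(fold change) 2.26 ± 0.11 (SE), adjusted p = 1.86e-06). Groups that do not overlap in CPM were a condition for naming the genes of largest change, and 41.5% of all rows had such groups. *PGC*, which encodes the gastric protease precursor pepsinogen C, went from 8.68, 8.92 and 9.76 to 25.5, 25.01 and 25.1 CPM (log2(fold change) 1.46 ± 0.08 (SE), adjusted p = 2.83e-06). *JADE2*, which encodes a chromatin-binding zinc finger protein, went from 15.5, 14.9 and 15.1 to 35.4, 36.4 and 36.6 CPM (log2(fold change) 1.25 ± 0.06 (SE), adjusted p = 1.59e-06). In both genes the gap between the groups was many times the spread within them. *SPTSSB* encodes a small subunit of serine palmitoyltransferase, the first enzyme of sphingolipid synthesis, and rose by 1.55 ± 0.15 (SE) on the log2 scale, from 2.50 ± 0.104 CPM in sh-Con to 7.31 ± 0.385 CPM in sh1-*TUG1* (SD, n = 3). *FAXDC2*, a member of the fatty acid hydroxylase family, rose by 1.45 ± 0.11, from 7.34 ± 0.783 CPM in sh-Con to 20.03 ± 1.37 CPM in sh1-*TUG1* (SD, n = 3). *LGALS2* for galectin-2 and *PRIMA1*, which anchors acetylcholinesterase in the membrane, rose by 1.40 ± 0.19 and 1.35 ± 0.17 on the same scale.

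*CDRT4* gave the largest fitted change of the genes that met the rule for naming (log2(fold change) 4.97 ± 0.52 (SE), adjusted p = 0.000144), but its control libraries held only 0.369, 0.240 and 0.435 CPM, its knockdown libraries 16.1, 4.38 and 12.9 CPM spread widely, and its exons overlap those of *TVP23C* and a read-through transcript on the same strand, so its count is uncertain. At the other end of the level scale, *PEBP1*, which encodes the RAF kinase inhibitor protein, was measured at 425, 449.6 and 447 CPM in sh-Con and 844, 840.2 and 847 CPM in sh1-*TUG1* (log2(fold change) 0.94 ± 0.04 (SE), adjusted p = 5.5e-07). The 3 knockdown values lay close together, far above the controls.

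Among the largest falls were a pair of genes of one family. *APOL1* and *APOL2* are neighbouring apolipoprotein L genes on chromosome 22, 36253010 to 36267530 and 36226203 to 36239954. *APOL1*, the trypanosome lytic factor of human serum, fell from 249, 256 and 251.2 to 79.5, 82.1 and 78.3 CPM (log2(fold change) −1.66 ± 0.04 (SE), adjusted p = 3.49e-08), and *APOL2* from 97.4, 96.9 and 93.9 to 35.3, 34.99 and 36.6 CPM (log2(fold change) −1.43 ± 0.05 (SE), adjusted p = 4.01e-07). The apolipoprotein L genes are close copies of each other, so reads may be shared between them. *APOL3*, *APOL4* and *APOL6* had log2 values of −0.12, −0.07 and 0.13 and did not pass the test. *SLC2A3*, the glucose transporter GLUT3, fell from 323, 358 and 330.4 to 124, 124 and 120.2 CPM (log2(fold change) −1.45 ± 0.05 (SE), adjusted p = 3.14e-07), and its near-identical copy *SLC2A14* fell by 0.46 ± 0.09. The hydroxycarboxylic acid receptor genes *HCAR2* and *HCAR3*, which also share most of their sequence, fell, with log2 values of −1.53 ± 0.13 and −1.45 ± 0.09. *PLCH2*, a phospholipase C, fell by 1.64 ± 0.17, and *ANGPTL2*, a secreted angiopoietin-like protein, fell by 1.47 ± 0.08, from 44.04 ± 2.99 CPM in sh-Con to 15.9 ± 1.56 CPM in sh1-*TUG1* (SD, n = 3).

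**Figure D2:**
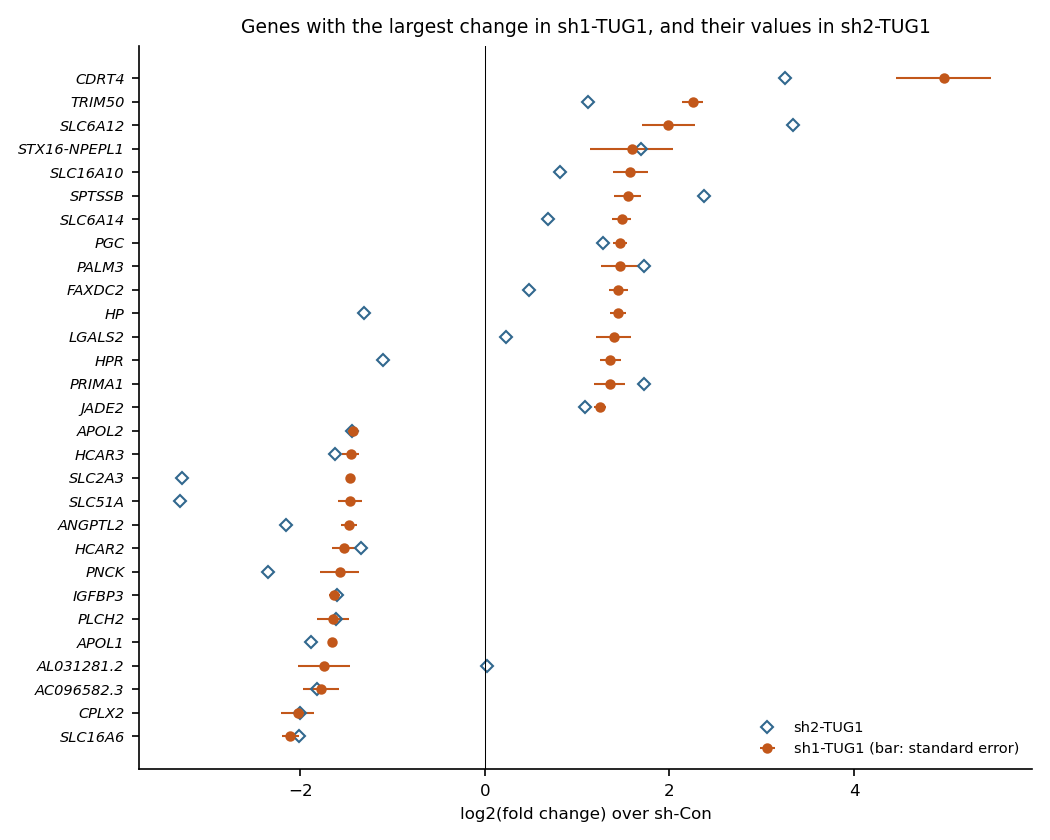
Points give the log2(fold change) against sh-Con of 15 higher and 14 lower DEGs with the largest change in sh1-*TUG1*, with bars for the SE (standard error), and open symbols give the value of the same gene in sh2-*TUG1* against the same 3 control libraries. *HP* and *HPR* lie on opposite sides of 0 in the lines, while the values of *APOL2* lie close together.

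Many secreted plasma proteins rose in sh1-*TUG1*. The members of this and the other gene lists were chosen with earlier results of these data known. Of the acute-phase proteins, which the liver releases more of in inflammation, 10 of 17 tested rose (58.8%, against 12.5% of all rows) and 1 fell, with a median log2(fold change) of 0.302, or 0.175 without sh1-*TUG1* replicate 3. *HP* encodes haptoglobin, which binds free haemoglobin (chromosome 16, 72054592 to 72061055). Its level was 20.9, 18.02 and 16.3 CPM in sh-Con and 49.3, 49.3 and 51.4 CPM in sh1-*TUG1* (log2(fold change) 1.44 ± 0.08 (SE), adjusted p = 4.56e-06). The neighbouring copy *HPR* shares nearly all of its sequence, so reads may be split between them, and it rose by 1.36 ± 0.11. *HPX* for hemopexin, the plasma carrier of haem, was low, at 1.42, 2.55 and 2.66 and 5.001, 4.88 and 4.16 CPM (log2(fold change) 1.08 ± 0.24 (SE), adjusted p = 0.0104). *SERPINA3*, or antichymotrypsin, went from 608, 544 and 509 to 818, 859 and 824 CPM (log2(fold change) 0.59 ± 0.06 (SE), adjusted p = 0.000141), and it shares exons with the locus AL049839.2. *AGT*, which encodes angiotensinogen, the precursor of the angiotensins, went from 759.8, 699.9 and 702 to 1048, 1079 and 1064 CPM (log2(fold change) 0.56 ± 0.04 (SE), adjusted p = 2.46e-05). All 3 fibrinogen chains rose, *FGA* by 0.37 ± 0.04, *FGB* by 0.49 ± 0.07 and *FGG* by 0.33 ± 0.05. Of the acute-phase genes that did not pass the test, *C3*, the central complement factor, had a log2 value of −0.11, *ORM1* for orosomucoid −0.08 and *CFB* −0.02. The member that fell was *SERPINA1* for antitrypsin (log2(fold change) −0.24 ± 0.08 (SE), adjusted p = 0.0464), and its call was lost without sh1-*TUG1* replicate 1, 2 or 3, with an adjusted p of up to 0.146, while 2 members fell without sh-Con replicate 1. The summed level of the list overlapped between the groups, at 14294.3 to 16568.9 CPM in sh-Con and 14710.3 to 15128.7 CPM in sh1-*TUG1*.

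Of the plasma carriers and protease inhibitors, 12 of 20 rose (60%) and 2 fell, with a median of 0.295. The summed level of the group was 38296.0 to 41494.7 CPM in sh-Con and 48321.4 to 51501.8 CPM in sh1-*TUG1*. *ALB*, for serum albumin, had the largest gain of any gene in CPM, from 12887, 13410.0 and 14708 in sh-Con to 18498, 18033 and 19469 in sh1-*TUG1*, a mean gain of 4998 CPM (log2(fold change) 0.45 ± 0.05 (SE), adjusted p = 0.000233). *A2M*, the broad protease inhibitor alpha-2-macroglobulin, went from 3697, 3539.7 and 5181 to 7500.4, 7379.7 and 8676 CPM (log2(fold change) 0.92 ± 0.13 (SE), adjusted p = 0.000773). The third library of each line was the highest for *A2M*, and the groups did not overlap, as in 41.5% of all rows. *AFP*, the fetal counterpart of albumin and a marker of liver cancer, went from 4724, 4914 and 4899.6 to 6367, 6515 and 6434 CPM (log2(fold change) 0.41 ± 0.03 (SE), adjusted p = 3.22e-05). Among the members that rose, *SERPINA7* for thyroxine rose by 1.07 ± 0.12, *SHBG* for sex steroids by 0.50 ± 0.06, *TTR* for thyroxine and retinol by 0.47 ± 0.06, and *SERPINA6* for cortisol by 0.33 ± 0.06. *SERPINA5*, the protein C inhibitor, went from 360.4, 359 and 365 to 516, 507 and 517 CPM (log2(fold change) 0.51 ± 0.04 (SE), adjusted p = 1.77e-05), and its exons overlap those of *SERPINA4*. *AHSG*, or fetuin-A, an inhibitor of calcification, went the other way, from 8400.5, 7893 and 7927 to 6724, 6777 and 6970.4 CPM (log2(fold change) −0.24 ± 0.04 (SE), adjusted p = 0.00119). The count of 2 that fell was 1 without sh-Con replicate 2 or 3 and without sh1-*TUG1* replicate 1 or 3, since *PON3* was lost.

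Of the coagulation and complement factors, 15 of 36 rose (41.7%) and 2 fell, with a median of 0.234. *C4BPA*, the regulator of the classical complement pathway, went from 49.7, 44.4 and 48.6 to 71.1, 77.4 and 72.3 CPM (log2(fold change) 0.63 ± 0.06 (SE), adjusted p = 0.000111). *SERPINF1*, an inhibitor of vessel growth, went from 444, 377 and 382 to 579.8, 602 and 576 CPM (log2(fold change) 0.55 ± 0.06 (SE), adjusted p = 0.000237). *C5* rose by 0.38 ± 0.04, the antiplasmin gene *SERPINF2* by 0.33 ± 0.05, and the near-identical *C4A* and *C4B* by 0.45 ± 0.06 and 0.44 ± 0.04. *C8G* fell by 0.53 ± 0.11, from 13.95 ± 1.12 CPM in sh-Con to 9.66 ± 0.889 CPM in sh1-*TUG1* (SD, n = 3). The vitamin K dependent clotting factors prothrombin (*F2*), *F7* and *F10* had log2 values of −0.03, −0.04 and −0.11 and did not pass the test, and *PROZ*, a further vitamin K dependent factor, rose by 0.78 ± 0.12. The other member that fell was *TFPI* (log2(fold change) −0.18 ± 0.04 (SE), adjusted p = 0.0173), and its call was lost without sh1-*TUG1* replicate 1, 2 or 3, with an adjusted p of up to 0.0725. The 2 that fell were 1 without sh1-*TUG1* replicate 1 or 2.

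Growth factors, cytokines and their binding proteins went the other way. Of 54 tested, 25 fell (46.3%, against 12.3% of all rows), 12 of them as DEGs against 2.52% of all rows, while 12 rose (22.2%), and the median was −0.197, or −0.116 without sh-Con replicate 1. The 12 that rose were 7 without sh-Con replicate 2, 6 without sh1-*TUG1* replicate 1 and 7 without sh1-*TUG1* replicate 3. Members of the insulin-like growth factor axis were among those that fell. *IGFBP1*, a binding protein that the liver secretes, went from 5912, 6009.9 and 6013 to 3963, 4195 and 4090.4 CPM (log2(fold change) −0.55 ± 0.03 (SE), adjusted p = 7.04e-06), and its mean dropped by 1895.2 CPM. *IGF2*, the fetal growth factor, went from 1989, 1663 and 1778 to 1113, 1122 and 1102 CPM (log2(fold change) −0.70 ± 0.06 (SE), adjusted p = 4.41e-05), and its locus also holds the read-through gene INS-IGF2. *IGFBP3* fell from 91.5, 86.7 and 92.05 to 29.8, 27.1 and 30.5 CPM (log2(fold change) −1.63 ± 0.06 (SE), adjusted p = 5.36e-07). The further binding proteins *IGFBP2* and *IGFBP4* fell, with log2 values of −0.66 ± 0.12 and −0.66 ± 0.05, whereas *IGFBP7* had a log2 value of −0.46 and *IGFBP6* one of −0.22, and neither passed the test.

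Other members of the list are given by role. *GDF15*, a cytokine of cell stress that acts on appetite, went from 998, 856 and 850.1 to 545, 587 and 589 CPM (log2(fold change) −0.65 ± 0.06 (SE), adjusted p = 0.00011). *ADM* for adrenomedullin, a vasodilator peptide, fell by 1.01 ± 0.09, the activin subunit *INHBB* fell by 0.77 ± 0.08 and the chemokine *CCL20* fell by 0.63 ± 0.07. *CYR61* and *CTGF*, matrix-associated factors of one family, fell, with log2 values of −0.89 ± 0.09 and −0.48 ± 0.04. *PGF*, the placental growth factor and a ligand of VEGF receptor 1, rose from 25.5, 26.3 and 24.8 to 48.3, 51.5 and 54.9 CPM (log2(fold change) 1.01 ± 0.06 (SE), adjusted p = 7.32e-06), while *VEGFA* fell by 0.31 ± 0.06, from 264 ± 22.1 CPM in sh-Con to 213 ± 4.40 CPM in sh1-*TUG1* (SD, n = 3). *TNFSF10*, the death ligand TRAIL, rose by 0.95 ± 0.12, and *FST* for follistatin, which binds activins, by 0.40 ± 0.06.

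**Figure D3:**
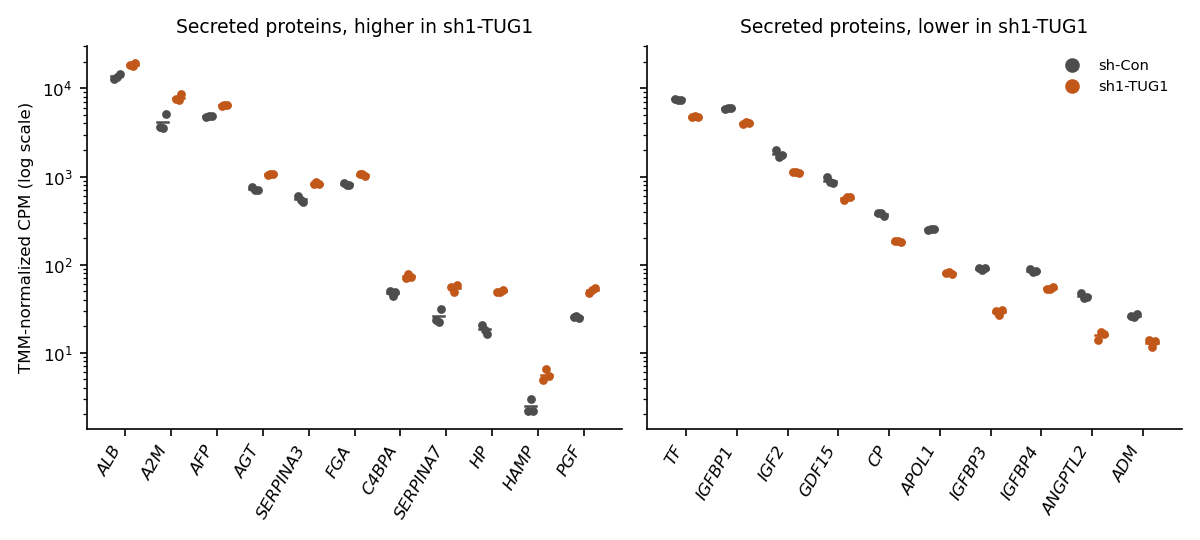
Points are single libraries, with sh-Con and sh1-*TUG1* in different colours and a short line at the mean of 3, for 11 secreted proteins that rose and 10 that fell, on a log axis in CPM. The genes shown were picked from those that rose or fell. The 2 groups do not overlap for any of them, from *HAMP* at the low end to *ALB* at the high end, and 41.5% of all rows did not overlap either.

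Transporters changed gene by gene in both directions. The solute carrier list was taken by symbol and so holds a few genes that are not carriers, such as *SLC9A3R2* and *SLC2A4RG*. Of 193 tested, 37 rose (19.2%) and 35 fell (18.1%), with a median of 0.030, and between 0.004 and 0.040 when 1 library was left out. The 35 were 20 without sh-Con replicate 2 and 18, 18 and 22 without sh1-*TUG1* replicates 1, 2 and 3. Among carriers of fuels, *SLC2A2*, the liver glucose transporter GLUT2, went from 15.8, 15.7 and 18.4 to 38.9, 34.3 and 36.5 CPM (log2(fold change) 1.13 ± 0.08 (SE), adjusted p = 1.87e-05), the opposite direction to GLUT3. *SLC13A5*, the sodium citrate transporter of hepatocytes, went from 100.2, 96.1 and 113 to 153, 161 and 168 CPM (log2(fold change) 0.64 ± 0.07 (SE), adjusted p = 0.000134). *SLC27A2*, which takes up and activates very long chain fatty acids, rose by 0.53 ± 0.06.

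*SLC6A14*, a broad amino acid importer, went from 10.03, 12.2 and 13.7 to 33.3, 33.8 and 33.3 CPM (log2(fold change) 1.48 ± 0.10 (SE), adjusted p = 1.33e-05). *SLC16A10*, an aromatic amino acid and thyroid hormone carrier, went from 3.999, 4.13 and 6.71 to 16.1, 14.6 and 13.7 CPM (log2(fold change) 1.58 ± 0.19 (SE), adjusted p = 0.000347), and *SLC5A3*, the sodium inositol cotransporter, rose by 0.69 ± 0.08, with exons that overlap *MRPS6*. *SLC3A2*, the heavy chain shared by several amino acid exchangers, went from 948, 1023 and 1062 to 1228, 1216 and 1271 CPM (log2(fold change) 0.29 ± 0.05 (SE), adjusted p = 0.00188). Its partner *SLC7A5* had a log2 value of −0.16, and this call as lower was lost without sh1-*TUG1* replicates 1, 2 or 3 in turn, with an adjusted p of up to 0.0704. *SLC6A8*, the creatine transporter, fell from 230.1, 235 and 234 to 146, 146 and 138 CPM (log2(fold change) −0.70 ± 0.04 (SE), adjusted p = 5.35e-06), and *SLC7A2* for cationic amino acids fell by 0.24 ± 0.05.

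*SLC23A2*, which imports ascorbate, went from 173, 177 and 171 to 278, 274 and 264 CPM (log2(fold change) 0.65 ± 0.04 (SE), adjusted p = 7.87e-06). *SLC39A4*, the zinc importer ZIP4, rose by 0.59 ± 0.05, the manganese exporter *SLC30A10* by 0.54 ± 0.09, and the thiamine transporter *SLC19A3* by 1.02 ± 0.21 from 2.31 ± 0.639 CPM in sh-Con to 4.72 ± 0.301 CPM in sh1-*TUG1* (SD, n = 3). *SLC51A*, a subunit of the bile acid exporter, was among the largest falls (log2(fold change) −1.46 ± 0.13 (SE), adjusted p = 6.08e-05, from 15.6 ± 1.56 CPM in sh-Con to 5.68 ± 0.744 CPM in sh1-*TUG1* (SD, n = 3)).

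Of 27 ABC transporters, which export substrates with ATP, 7 fell (25.9%) and 1 rose. *ABCA7*, a phospholipid exporter, went from 67.6, 55.4 and 58.4 to 30.8, 26.96 and 27.96 CPM (log2(fold change) −1.08 ± 0.08 (SE), adjusted p = 2.67e-05). The canalicular exporter of bilirubin conjugates *ABCC2* fell by 0.40 ± 0.04 and its basolateral relative *ABCC3* fell by 0.51 ± 0.07. *ABCC5* was the member that rose (log2(fold change) 0.39 ± 0.06 (SE), adjusted p = 0.00189), and a count of 3 rose without sh-Con replicate 1 and 2 without sh-Con replicate 3. The multidrug exporter *ABCB1* had a log2 value of 0.06 and did not pass the test.

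Lipid genes moved in both directions. Of 33 lipid droplet and triglyceride genes, 9 rose and 9 fell (27.3% each). *PLIN2*, the main coat protein of droplets in liver cells (chromosome 9, 19108375 to 19149290), was measured at 741, 760.1 and 731 CPM in sh-Con and 421, 428 and 409.9 CPM in sh1-*TUG1* (log2(fold change) −0.83 ± 0.04 (SE), adjusted p = 1.16e-06). The groups were far apart and each was tight. Of the enzymes that build triglyceride, the first step was divided: the microsomal acyltransferase *GPAT3* went from 70.6, 79.02 and 74.4 to 37.9, 34.8 and 35.9 CPM (log2(fold change) −1.05 ± 0.06 (SE), adjusted p = 4.81e-06), while the mitochondrial *GPAM* went from 135, 145 and 180.5 to 241, 239 and 259.6 CPM (log2(fold change) 0.68 ± 0.09 (SE), adjusted p = 0.000744). The last step rose in both its enzymes, *DGAT1* from 28.5, 26.5 and 29.5 to 47.4, 47.7 and 43.3 CPM (log2(fold change) 0.71 ± 0.07 (SE), adjusted p = 7.66e-05) and *DGAT2* from 40.2, 43.7 and 42.7 to 60.1, 64.3 and 62.1 CPM (log2(fold change) 0.56 ± 0.06 (SE), adjusted p = 0.000125). *PNPLA2*, the triglyceride lipase of droplets, rose by 0.46 ± 0.06, and the lysosomal lipase *LIPA* fell by 0.24 ± 0.05. The droplet proteins *PLIN4* and *PLIN3* had log2 values of −0.68 and −0.03, of which the first passed the test.

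Of 33 genes of fatty acid oxidation and ketogenesis, 11 rose (33.3%) and 5 fell (15.2%), and the 11 were 6 without sh1-*TUG1* replicate 2 or 3. *BDH1*, which makes the ketone body hydroxybutyrate, went from 22.7, 21.7 and 18.3 to 37.7, 40.1 and 36.4 CPM (log2(fold change) 0.87 ± 0.09 (SE), adjusted p = 0.000109). The peroxisomal enzymes *ACOX2* and *EHHADH* rose by 0.32 ± 0.05 and 0.37 ± 0.08. Of the acyl-CoA synthetases, which activate fatty acids, *ACSL3* fell by 0.31 ± 0.04, *ACSL4* fell by 0.45 ± 0.06 and *ACSL5* fell by 0.43 ± 0.04, while *ACSL1* had a log2 value of 0.12 and did not pass the test. *CPT1A*, the gate of mitochondrial oxidation, had a log2 value of −0.07 and did not pass it either.

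Genes of fatty acid and cholesterol synthesis had medians near 0, at 0.014 and 0.034, and with 1 library left out these ran from −0.007 to 0.020 and from 0.020 to 0.046. Of 21 genes of fatty acid synthesis and desaturation, 3 rose (14.3%) and 4 fell (19%). Of 24 of cholesterol synthesis, 6 rose (25%) and 2 fell (8.33%), against 12.5% and 12.3% of all rows. *SCD*, the stearoyl-CoA desaturase, fell from 3068, 3130.0 and 2998 to 2544, 2493 and 2494 CPM (log2(fold change) −0.29 ± 0.03 (SE), adjusted p = 0.000325), and *EBP*, an isomerase of cholesterol synthesis, rose by 0.26 ± 0.06. These counts were smaller when certain libraries were left out, and the counts over all rows were smaller without the same ones. The 6 were 2 and the 2 were 1 or 0 without sh-Con replicate 2 or 3 or any sh1-*TUG1* library. The 3 were 1 without sh-Con replicate 3 or sh1-*TUG1* replicate 1 or 2, and the 4 were 2 without sh1-*TUG1* replicate 1 or 2.

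In lipoprotein handling, 6 of 33 genes rose (18.2%) and 10 fell (30.3%), and the 10 were 6 without sh-Con replicate 3 or sh1-*TUG1* replicate 2. *SCARB1*, the receptor for high density lipoprotein, fell by 0.31 ± 0.05 and *VLDLR* fell by 0.34 ± 0.07. *APOB*, the structural protein of very low density lipoprotein, rose from 6326, 6078 and 6444 to 7472, 7307 and 7451 CPM (log2(fold change) 0.24 ± 0.03 (SE), adjusted p = 0.000962). *APOM*, a carrier of sphingosine phosphate, rose by 0.46 ± 0.04. The major apolipoproteins *APOA1*, *APOE* and *APOC1* had log2 values of −0.002, 0.06 and 0.02 and did not pass the test.

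Of 47 iron and haem genes, 11 fell (23.4%) and 9 rose (19.1%), with a median of 0.032, and between 0.007 and 0.042 when 1 library was left out. The 11 were 7 without sh1-*TUG1* replicate 2, and the 9 were 4 without sh1-*TUG1* replicate 1. *TF*, for transferrin, the iron carrier of plasma, had the largest loss of any gene in CPM. It was measured at 7670.4, 7474 and 7353 CPM in sh-Con and 4728, 4813 and 4769.5 CPM in sh1-*TUG1* (log2(fold change) −0.65 ± 0.03 (SE), adjusted p = 1.63e-06), and its exons overlap those of *SRPRB*. *CP*, for the copper-bearing ferroxidase ceruloplasmin, went from 384, 383 and 360.2 to 186, 183 and 179.8 CPM (log2(fold change) −1.04 ± 0.04 (SE), adjusted p = 5.5e-07). In both genes the 3 knockdown libraries lay within a narrow band below every control, and 20.2% of all rows had every knockdown library below every control. *SLC40A1*, the iron exporter ferroportin, fell from 144, 164 and 158 to 118, 117 and 121 CPM (log2(fold change) −0.39 ± 0.05 (SE), adjusted p = 0.000814). *HMOX1*, which degrades haem, fell by 0.41 ± 0.05, and the metalloreductases *STEAP1* and *STEAP2* fell by 0.38 ± 0.07 and 0.49 ± 0.05. *HAMP*, for hepcidin, the hormone that removes ferroportin from the membrane, was low and rose from 2.21, 3.02 and 2.17 to 4.88, 6.52 and 5.40 CPM (log2(fold change) 1.18 ± 0.20 (SE), adjusted p = 0.00233). *SLC39A14*, an importer of iron, zinc and manganese, went from 963, 1162 and 1206 to 1514, 1531 and 1538 CPM (log2(fold change) 0.46 ± 0.07 (SE), adjusted p = 0.00158).

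The transferrin receptor *TFRC* fell (log2(fold change) −0.38 ± 0.09 (SE), adjusted p = 0.0157), from 491, 648 and 619 to 468, 416 and 467 CPM, but the call was lost without sh-Con replicate 2 or sh1-*TUG1* replicate 2, with an adjusted p of up to 0.0725. The ferritin heavy chain *FTH1* fell (log2(fold change) −0.15 ± 0.04 (SE), adjusted p = 0.0225) and was lost without any of the 3 sh1-*TUG1* libraries, with an adjusted p of up to 0.0892. The light chain *FTL* had a log2 value of −0.14 and did not pass the test. *ALAD* and *GLRX5*, of haem and iron-sulphur cluster synthesis, rose by 0.28 ± 0.06 and 0.27 ± 0.06, and *ALAS1*, the first enzyme of haem synthesis, had a log2 value of −0.04 and did not pass the test.

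Among the stress programmes, the chaperones of the endoplasmic reticulum and the unfolded protein response were lower. Of 35 genes tested, 15 fell (42.9%) and 1 rose, with a median of −0.141, so that the changes were common and small. *HSPA5*, the chaperone BiP, went from 6332, 6364 and 6088 to 4904, 4875 and 4767 CPM (log2(fold change) −0.37 ± 0.03 (SE), adjusted p = 7.09e-05), and *HSP90B1*, or GRP94, from 4182, 3982 and 3789 to 3477, 3454 and 3364 CPM (log2(fold change) −0.22 ± 0.04 (SE), adjusted p = 0.00502). *ERO1A*, the oxidase that recharges disulphide formation, fell further, from 418, 430.0 and 415 to 230.0, 231 and 234 CPM (log2(fold change) −0.86 ± 0.04 (SE), adjusted p = 8.58e-07), and it is also a member of the hypoxia list. The co-chaperone *DNAJB9* fell by 0.44 ± 0.06, and the sensors *ERN1* and *ATF6* fell by 0.26 ± 0.05 and 0.24 ± 0.05. The member that rose was the transcription factor *XBP1* (log2(fold change) 0.25 ± 0.04 (SE), adjusted p = 0.00299), and without sh-Con replicate 1 a count of 2 rose. Of 35 other heat shock proteins and chaperones, 5 rose (14.3%) and 4 fell (11.4%), near the 12.5% and 12.3% of all rows. *HSPA13*, a microsomal relative of HSP70, fell by 0.48 ± 0.06 and *HSP90AB1* fell by 0.22 ± 0.04, while *HSPB8* rose by 1.14 ± 0.23. The 5 that rose were 2 or 3 without sh-Con replicate 2 or 3 or any sh1-*TUG1* library, and the 4 that fell were 7 without sh-Con replicate 1 and 2 without sh1-*TUG1* replicate 1.

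Targets of ATF4, the factor of amino acid shortage, were mixed, with 7 of 48 higher (14.6%) and 10 lower (20.8%, or 6 genes without sh1-*TUG1* replicate 2) and a median of −0.010, which ran from −0.036 to −0.004 when 1 library was left out. *PHGDH*, the first enzyme of serine synthesis, went from 153, 157 and 154 to 211, 212 and 213 CPM (log2(fold change) 0.45 ± 0.04 (SE), adjusted p = 5.26e-05), and *NUPR1*, a small stress-induced regulator, rose by 0.66 ± 0.09. *PPP1R15A*, which reverses the block of translation, fell by 0.32 ± 0.07, and *ASNS*, the asparagine synthetase, had a log2 value of −0.05 and did not pass the test. NRF2 targets fell in 10 of 30 cases (33.3%) and rose in 5 (16.7%). *GCLC*, the rate-limiting enzyme of glutathione synthesis, went from 340.5, 361 and 354 to 236, 244 and 235 CPM (log2(fold change) −0.56 ± 0.04 (SE), adjusted p = 1.88e-05), and *TXNRD1* fell by 0.26 ± 0.06. *GPX2*, a glutathione peroxidase, rose from 146, 129 and 129.8 to 232, 232 and 224 CPM (log2(fold change) 0.76 ± 0.05 (SE), adjusted p = 1.61e-05), and *AKR1C1*, a ketosteroid reductase, from 1659, 1837 and 1851 to 2358, 2369.7 and 2446 CPM (log2(fold change) 0.42 ± 0.05 (SE), adjusted p = 0.000222). Of 30 p53 targets, 5 rose (16.7%) and 4 fell (13.3%), near the 12.5% and 12.3% of all rows. *TP53INP1* was higher by 0.67 ± 0.08, and *CDKN1A*, the cell cycle inhibitor p21, had a log2 value of −0.21.

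Metallothioneins, the small cysteine-rich proteins that bind zinc and copper, fell in 3 of the 5 that were tested. *MT2A* went from 169, 120.3 and 129 to 66.1, 65.6 and 75.4 CPM (log2(fold change) −1.01 ± 0.12 (SE), adjusted p = 0.00026). *MT1E* fell by 0.79 ± 0.12 and *MT1X* fell by 0.81 ± 0.16, while *MT1G* and *MT1F* had log2 values of −0.26 and 0.19 and did not pass the test. These genes are close copies, so reads may be split between them. The first sh-Con library was the highest of the 6 for *MT2A*, and the call held without it. Their promoters are known for metal response elements, where the zinc-sensing factor MTF1 binds, and the 2 shown are the members that fell and have a promoter in the table used here. The motif searched was TGCACNC or TGCGCNC on both strands, which 29.3% of 27305 RefSeq promoters of 300 bases and 39% of the 9429 promoters of genes tested held. Both windows end 11 bases before the start of transcription, hold 4 matches each, in capitals, and are from RefSeq on GRCh38.p14, plus strand, at chr16:56608424-56608573 and chr16:56682310-56682459. A match is a description of letters and not of binding.
MT2A: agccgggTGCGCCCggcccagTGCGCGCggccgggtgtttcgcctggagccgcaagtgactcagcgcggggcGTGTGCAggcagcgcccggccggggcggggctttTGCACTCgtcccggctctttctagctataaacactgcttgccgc
MT1X: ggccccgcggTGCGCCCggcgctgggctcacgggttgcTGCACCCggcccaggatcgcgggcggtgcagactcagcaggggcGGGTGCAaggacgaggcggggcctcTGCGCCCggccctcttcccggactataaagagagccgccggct

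The hypoxia targets that encode no glycolytic enzyme were the list with the most members lower. The members of this list were chosen with earlier results of these data known. Of 48 tested, 41 fell (85.4%, against 12.3% of all rows), and the other 7 did not pass the test. Among those that fell, 22 were DEGs, against 2.52% of all rows, and the median of the list was −0.570. Leaving out any library kept the count of those that fell between 38 and 44. Of the oxygen sensors, *EGLN3*, a prolyl hydroxylase, went from 84.5, 94.2 and 88.3 to 35.9, 35.5 and 37.1 CPM (log2(fold change) −1.30 ± 0.06 (SE), adjusted p = 9.2e-07), and *EGLN1* fell by 0.43 ± 0.05. Of the secreted factors, *EPO* for erythropoietin went from 13.4, 13.2 and 14.00 to 5.12, 5.35 and 6.80 CPM (log2(fold change) −1.23 ± 0.13 (SE), adjusted p = 0.000149). *PDK1*, a kinase that inhibits pyruvate dehydrogenase, went from 76.1, 83.96 and 77.2 to 37.6, 32.98 and 33.8 CPM (log2(fold change) −1.19 ± 0.07 (SE), adjusted p = 3.74e-06). In all 3 of these genes every knockdown library was below every control, as in 20.2% of all rows. *NDRG1* went from 589, 533 and 543 to 245, 241 and 240.1 CPM (log2(fold change) −1.20 ± 0.05 (SE), adjusted p = 5.36e-07), and the carbonic anhydrase *CA9* from 66.97, 64.6 and 70.3 to 40.1, 38.4 and 42.8 CPM (log2(fold change) −0.73 ± 0.06 (SE), adjusted p = 4.12e-05). The mitophagy receptors *BNIP3* and *BNIP3L* fell, with log2 values of −0.68 ± 0.05 and −0.64 ± 0.04. The collagen prolyl hydroxylases *P4HA1* and *P4HA2* fell, with log2 values of −0.73 ± 0.05 and −0.34 ± 0.06. *AK4*, an adenylate kinase, had a log2 value of 0.12 and did not pass the test. Members of this list that are also in other lists include *SLC2A3*, *ADM*, *VEGFA*, *ANGPTL4*, *STC2*, *VLDLR*, *ERO1A* and *LOX*, so the counts of the lists are not independent.

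The letters ACGTG are the core of the hypoxia response element and were searched on both strands, where they can also be part of the palindrome CACGTG. They occurred in 21.6% of the 27305 RefSeq promoters, in 26.9% of the 9429 promoters of genes tested, and in 21 of the 37 list members with a promoter in the table (56.8%). Among the members that fell the share was 18 of 32 (56.2%), and among those that did not it was 3 of 5. The 6 windows of 60 bases are from 6 DEGs of the list with large falls that hold the letters, and show how the core stands in different surroundings. Capitals mark the matches, and CACGT is the same core read on the other strand. Their log2(fold change) ran from −1.18 for *BHLHE40* to −0.73 for *CA9*. *BHLHE40*, a circadian repressor, fell from 221, 189 and 191 to 88.5, 90.1 and 87.01 CPM, and *LOX*, the collagen crosslinking oxidase, from 93.2, 95.7 and 94.4 to 43.3, 46.8 and 43.5 CPM. *ANKRD37*, at 6.34, 6.77 and 5.002 and 2.72, 3.09 and 4.49 CPM, lost its call without sh-Con replicate 2 or sh1-*TUG1* replicate 1 or 2, with an adjusted p of up to 0.0811. *ANGPTL4*, an inhibitor of lipoprotein lipase, fell by 0.80 ± 0.13. The windows are from GRCh38.p14, on the strand given, at chr3:4979187-4979246 (plus), chr5:122078413-122078472 (minus), chr14:52695641-52695700 (minus), chr4:185396651-185396710 (plus), chr19:8363905-8363964 (plus) and chr9:35673868-35673927 (plus).
BHLHE40: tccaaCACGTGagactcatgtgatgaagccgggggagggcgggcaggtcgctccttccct
LOX: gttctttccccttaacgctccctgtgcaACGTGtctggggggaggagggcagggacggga
ERO1A: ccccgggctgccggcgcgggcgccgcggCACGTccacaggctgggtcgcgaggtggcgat
ANKRD37: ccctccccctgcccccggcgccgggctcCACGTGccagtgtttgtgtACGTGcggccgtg
ANGPTL4: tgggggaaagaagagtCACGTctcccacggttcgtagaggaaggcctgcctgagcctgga
CA9: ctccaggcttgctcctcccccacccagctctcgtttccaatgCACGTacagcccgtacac

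**Figure D4:**
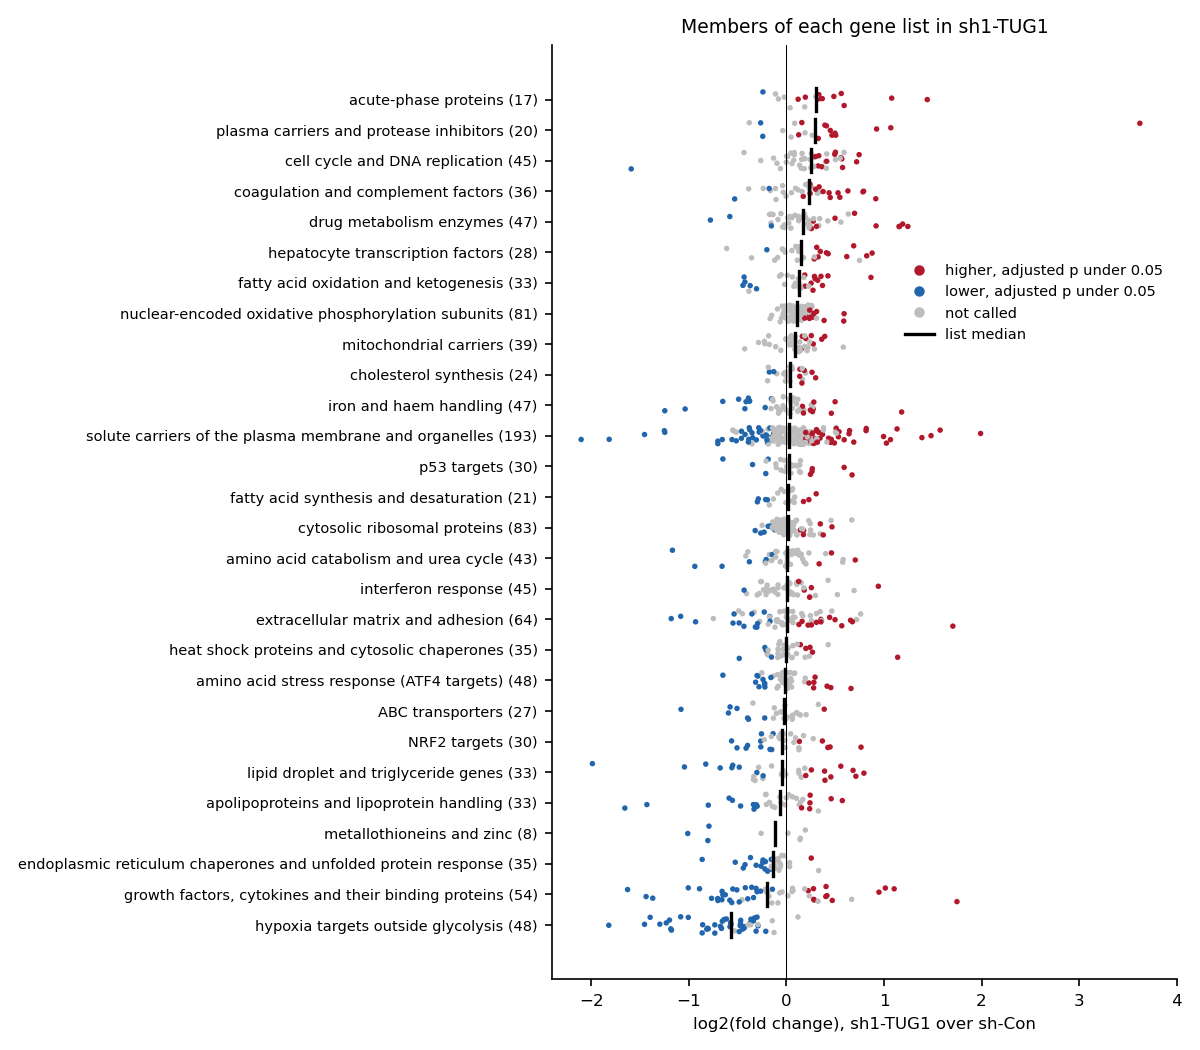
Each row is one of 28 gene lists, points are the log2(fold change) of its members in sh1-*TUG1* against sh-Con, with members that rose in red, those that fell in blue and the rest in grey, and a black bar at the median. The hypoxia list has its median at −0.570, the acute-phase and carrier lists sit at 0.302 and 0.295, and the farthest point is *PZP*, a relative of *A2M* with levels of 0.738, 0 and 0 CPM in sh-Con and 2.40, 3.43 and 3.06 CPM in sh1-*TUG1*, which DESeq2 did not call.

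Of 28 hepatocyte transcription factors, 10 rose (35.7%) and 1 fell, with a median of 0.145, or 0.226 without sh-Con replicate 3, and the 1 that fell did not pass without sh1-*TUG1* replicate 3. *GATA4*, a zinc finger factor of early liver, went from 30.7, 25.8 and 27.9 to 50.4, 48.3 and 50.5 CPM (log2(fold change) 0.82 ± 0.07 (SE), adjusted p = 4.61e-05), and the bile acid receptor *NR1H4* from 39.9, 42.8 and 56.9 to 69.01, 66.6 and 78.7 CPM (log2(fold change) 0.62 ± 0.12 (SE), adjusted p = 0.00547). *HNF4A*, the central hepatocyte factor, had a log2 value of −0.01, and it was 0.01 with library size alone as the scaling. Of 47 drug metabolism enzymes, 11 rose (23.4%) and 3 fell, with a median of 0.174. *CYP1A1*, the dioxin-inducible monooxygenase, went from 11.5, 7.87 and 9.11 to 21.3, 19.7 and 23.9 CPM (log2(fold change) 1.19 ± 0.14 (SE), adjusted p = 0.000256), and *UGT2B4*, a glucuronosyltransferase, from 21.4, 25.6 and 25.4 to 41.2, 35.6 and 40.7 CPM (log2(fold change) 0.70 ± 0.09 (SE), adjusted p = 0.000431). The fetal *CYP3A7* and the adult *CYP3A5*, which share sequence, rose by 1.16 ± 0.14 and 1.24 ± 0.22. Of 43 genes of amino acid catabolism and the urea cycle, 3 rose (6.98%) and 7 fell (16.3%), against 12.5% and 12.3% of all rows. *ASS1*, a urea cycle enzyme, went from 91.1, 78.9 and 78.2 to 136, 138 and 131 CPM (log2(fold change) 0.71 ± 0.06 (SE), adjusted p = 6.97e-05), and *HAL*, the histidine lyase, fell by 0.66 ± 0.06. The 3 were 7 with library size alone, the 7 were 4 without sh1-*TUG1* replicate 1 or 2, and the 3 drug enzymes that fell were 1 without sh-Con replicate 3 or sh1-*TUG1* replicate 1 or 3.

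Of 64 matrix and adhesion genes, 13 rose (20.3%) and 14 fell (21.9%), with a median of 0.001, and between −0.031 and 0.011 when 1 library was left out. The 13 were 8 without sh1-*TUG1* replicate 2. *LAMA5*, *LAMB2* and *NID1*, of the basement membrane, rose by 0.68 ± 0.05, 0.31 ± 0.04 and 0.57 ± 0.05. The integrin chains *ITGA1*, *ITGA2* and *ITGB1* fell, with log2 values of −0.44 ± 0.05, −0.55 ± 0.04 and −0.35 ± 0.05. *LAMB1*, also of the basement membrane, fell by 0.23 ± 0.04. Of 45 cell cycle genes, 12 rose (26.7%) and 1 fell, with a median of 0.250. The 12 were 7 without sh-Con replicate 2 and 5 without sh1-*TUG1* replicate 3, when the 1 became 2 and the median was 0.166. *FOXM1*, a factor of the G2 and M phases, went from 8.98, 7.31 and 9.60 to 14.9, 14.8 and 13.7 CPM (log2(fold change) 0.74 ± 0.12 (SE), adjusted p = 0.00162), and *E2F1* rose by 0.58 ± 0.11. *PCNA*, the clamp of DNA replication, had a log2 value of 0.01 and did not pass the test. The interferon list held 5 of 45 higher (11.1%) and 1 lower, and the 5 were 2 or fewer without sh-Con replicate 3 or any sh1-*TUG1* library, while the 1 was 4 without sh-Con replicate 2. The 83 cytosolic ribosomal protein genes held 6 higher and 6 lower (7.23% each) with a median of 0.012, and between −0.007 and 0.023 when 1 library was left out. The 6 that fell were 11 without sh-Con replicate 1, 3 without sh-Con replicate 2 and 1 without any sh1-*TUG1* library, and the 6 that rose were 3 without any sh1-*TUG1* library.

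Most protein-coding genes of the mitochondrial genome fell. Of the 13 protein-coding genes on chromosome M, 10 fell (76.9%, against 12.3% of all rows) and the other 3 did not pass the test, with a median of −0.507. *MT-CO1*, of cytochrome oxidase, went from 5097, 4096 and 4089 to 2965, 2897 and 2727 CPM (log2(fold change) −0.63 ± 0.08 (SE), adjusted p = 0.000455), and *MT-ND4*, of complex I, from 4376, 3592 and 3343 to 2413, 2224 and 2142 CPM (log2(fold change) −0.74 ± 0.09 (SE), adjusted p = 0.000341), with exons that overlap *MT-ND4L*. *MT-CYB* fell by 0.61 ± 0.08 and *MT-ND5* fell by 0.62 ± 0.10. The 3 genes that did not pass the test were *MT-CO2* at a log2 value of −0.30, *MT-ND2* at −0.33 and *MT-ND3* at 0.09. The first sh-Con library was the highest of the 6 for *MT-CO1* and *MT-ND4*, and its share of counts on chromosome M was 2.67%, against 2.14% and 1.99% in the other controls and 1.72%, 1.63% and 1.55% in sh1-*TUG1*. Without that library the median of the 13 was −0.398. Of 81 nuclear-encoded subunits of oxidative phosphorylation, 12 rose (14.8%, close to 12.5% of all rows) and the other 69 did not pass the test, with a median of 0.111. Without sh-Con replicate 1 the 12 were 20 and the median was 0.070, and the 12 were 7 without sh1-*TUG1* replicate 2. *SDHA*, of complex II, went from 109, 102 and 107 to 139, 139 and 138 CPM (log2(fold change) 0.39 ± 0.04 (SE), adjusted p = 0.000275), and *NDUFC2* rose by 0.59 ± 0.04. Mitochondrial carriers rose in 7 of 39 cases (17.9%), a count that was 1 to 3 without sh-Con replicate 2 or any sh1-*TUG1* library.

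**Figure D5:**
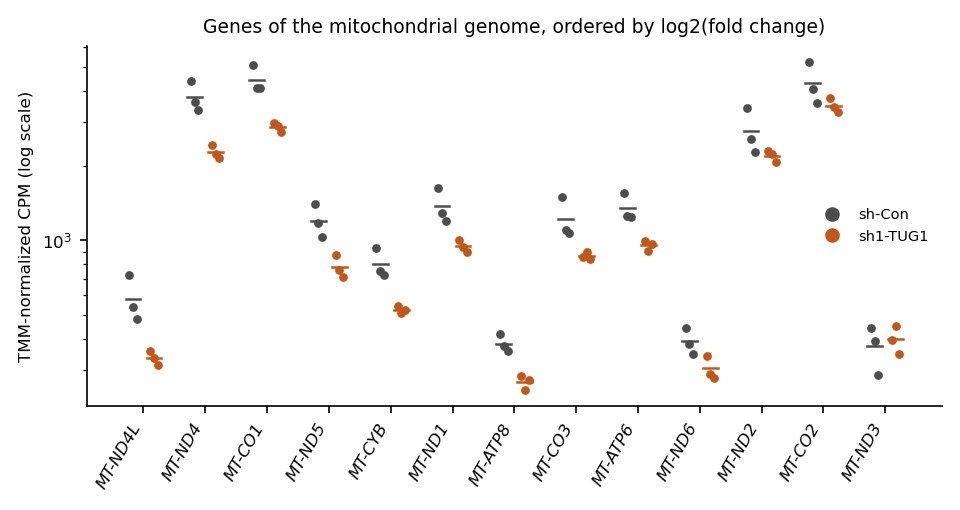
Points are single libraries of sh-Con and sh1-*TUG1* for the 13 protein-coding genes of the mitochondrial genome, in CPM on a log axis, with a short line at the mean of 3. For 10 of the genes the knockdown libraries lie below all controls, against 20.2% of all rows, and for *MT-CO2*, *MT-ND2* and *MT-ND3* the groups overlap.

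Set beside the second hairpin, many of the named genes had another value. Both lines were compared with the same 3 control libraries, so the values of both are given side by side and the difference rests on the direct test of sh2-*TUG1* against sh1-*TUG1* in the fit of 9 libraries. That test passed for 42.7% of the 12854 genes in both tables, and for 158 of the 257 named genes in both. Of these, 22 passed the test against sh-Con in both lines in opposite directions, 17 higher in sh1-*TUG1* and lower in sh2-*TUG1* and 5 the reverse. Named genes were picked mainly by their change in sh1-*TUG1*, and how many of all genes had opposite calls was not counted. Secreted proteins were among the 17. In sh1-*TUG1*, *HP* was at 1.44 against sh-Con on the log2 scale, where sh2-*TUG1* was at −1.31 (adjusted p of the difference = 5.34e-08). *TTR* had values of 0.47 and −0.82 (adjusted p = 1.94e-06), *C1S*, a protease of complement, 0.79 and −0.56 (adjusted p = 1.51e-06), and *SERPINA3* 0.59 and −0.22 (adjusted p = 2.27e-06). *TNFSF10* had 0.95 and −0.65 (adjusted p = 6.54e-06), and the histidine-catabolic enzyme *FTCD* 0.33 and −1.06 (adjusted p = 7.65e-08). Of the stress genes, *DNAJB9* had −0.44 and 0.28 (adjusted p = 9.31e-07) and *PPP1R15A* −0.32 and 0.50 (adjusted p = 1.85e-06).

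Further named genes had other values in the second line. *PLIN2* was at −0.83 in sh1-*TUG1* on the log2 scale, where sh2-*TUG1* was at 0.11 (adjusted p of the difference = 5.34e-08), and *IGFBP1* had −0.55 and −0.04 (adjusted p = 6.24e-07). *HSPA5* had −0.37 and 0.05 (adjusted p = 1.93e-06), and *GCLC* −0.56 and −0.10 (adjusted p = 4.58e-06). *SLC2A3* fell further in sh2-*TUG1*, at −3.28 against −1.45 (adjusted p = 5.34e-08), and *ALB* rose further, at 0.91 against 0.45 (adjusted p = 1.24e-05). Genes whose difference between the lines missed the threshold included *NDRG1* (−1.20 and −1.17, adjusted p = 0.626), *BHLHE40* (−1.18 and −1.18, adjusted p = 0.984), *AFP* (0.41 and 0.44, adjusted p = 0.399) and *GPAM* (0.68 and 0.69, adjusted p = 0.923), which does not show that they respond alike.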

How the data were processed

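Total RNA was taken from the HepG2 lines, and per the study the sequenced libraries were of mRNA isolated from them. The deposited tables give for each locus a read count and an FPKM value per library. The authors made the counts and FPKM values before deposit, and the submitters' processing notes name HISAT2, StringTie and GRCh38 without their roles. The counting rule and strand setting are not given in the sources used here. The tables also hold fold change and FDR columns of the authors, which were not used, and the FPKM values were not tested. All 13017 rows of the first table entered the fit, and 0 columns of values were left unmapped.

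Counts of the 6 libraries were tested with edgeR 4.0.16 (R 4.3.3) by glmQLFit and glmQLFTest with TMM normalization, sh1-*TUG1* against sh-Con, with Benjamini–Hochberg adjustment. A DEG had an adjusted p under 0.05 and a fold change over 1.5. The test of the 2 hairpin lines used all 9 libraries and 12854 genes. Alternatives were DESeq2 1.42.0, other scalings and filters, a replicate block, a fold change tested against 1.5 and leaving out each library. The model was tested on simulated data. Pairs of libraries of a line differed by a chi-squared of 7.39 to 22.4 per degree of freedom, so none was counted as a copy, and the biological coefficient of variation was 0.0923. Since the 3 libraries of a line are technical replicates per the methods of the study, p values measure only the spread between them. Positions and exon overlaps came from GENCODE 29, and promoters of 300 bases from RefSeq (GRCh38.p14).

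Genes were named by rule: the 15 higher and 15 lower DEGs with the largest change, an Ensembl identifier, a mean of at least 100 counts and groups that do not overlap, the 10 genes each way with the largest change in CPM, and from each list up to 4 members each way and the 2 most abundant. Further members were named with their values where a list is described by role, and a few genes that met the rule are not reported here. The members and lists were chosen with earlier results of these data known.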

Additional observations from a re-analysis of the deposited data

Results flagged for a closer look

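In 22 named genes the 2 hairpin lines passed the test against the same sh-Con libraries in opposite directions, and edgeR's direct test of sh2-*TUG1* against sh1-*TUG1* passed for each of them, with adjusted p between 5.34e-08 and 1.77e-05. The background is wide, since that test passed for 42.7% of genes. How many of all genes went in opposite directions against sh-Con was not counted. Values are the log2(fold change) of sh2-*TUG1* over sh1-*TUG1*.

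Of the genes higher in sh1-*TUG1* and lower in sh2-*TUG1*, the secreted proteins differed, *HP* (haptoglobin) by −2.75, *HPR* (the haptoglobin copy) by −2.47, *TTR* (transthyretin) by −1.28, *C1S* (a complement protease) by −1.35, *SERPINA3* (antichymotrypsin) by −0.81, *APOM* (an apolipoprotein) by −0.60, *TNFSF10* (the death ligand TRAIL) by −1.60, *LGALS3BP* (a secreted galectin ligand) by −0.46 and *LYZ* (lysozyme) by −0.69. Membrane and matrix proteins differed, *GPC3* (a membrane proteoglycan) by −0.37, *MMP11* (a matrix protease) by −1.65, *LAMA5* (a laminin chain) by −1.0 and *LRP1* (an endocytic receptor) by −0.50. Enzymes differed, *EHHADH* (a peroxisomal enzyme) by −0.88, *FTCD* (of histidine breakdown) by −1.39, *ALAD* (of haem synthesis) by −0.90 and *DHRS2* (a reductase) by −0.60. The 5 genes lower in sh1-*TUG1* and higher in sh2-*TUG1* differed, *ERO1B* (a folding oxidase) by 0.81, *DNAJB9* (a co-chaperone) by 0.72, *PPP1R15A* (a phosphatase subunit) by 0.82, *UGDH* (of glucuronate synthesis) by 0.46 and *STEAP2* (a metalloreductase) by 0.68. In sh1-*TUG1* against sh-Con, *LYZ* lost its call without sh-Con replicate 2 or any sh1-*TUG1* library (edgeR, adjusted p up to 0.15), and *LGALS3BP* lost its call without sh-Con replicate 2 or 3 or any sh1-*TUG1* library (edgeR, adjusted p up to 0.165). The other 20 kept their calls in that comparison without each library in turn. The calls of sh2-*TUG1* against sh-Con were not repeated in this way, and that of *APOM* was near the threshold (edgeR, adjusted p = 0.0498). Each hairpin is represented by 1 line, so the hairpin and the line cannot be told apart.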

How the results depend on the processing

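The numbers of genes higher and lower kept within 1.5 times their value under RLE size factors, library size alone, a filter of 1 CPM, DESeq2, a fit of all 9 libraries and Ensembl rows only. Testing the fold change itself against 1.5 left 45 higher and 69 lower DEGs, against 318 and 328. Leaving out 1 library gave 258 to 359 higher and 289 to 328 lower DEGs, and 1017 to 1895 genes higher and 1019 to 1884 lower at the adjusted p. These fits hold 2 libraries in 1 group.

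The replicate numbers did not pair the libraries: deviations from the group means of libraries with the same number correlated at 0.0328, 0.024 and −0.208. A replicate block gave 305 higher and 292 lower DEGs and 1422 and 1347 genes at the adjusted p, and 14 of the 261 named genes lost their call under it.

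Of the named genes, 6 lost their call under DESeq2, 8 with library size alone, and 7 to 43 without 1 library. The log2(fold change) changed sign for 6 genes that did not pass the test in the fit of 6 libraries, and without sh-Con replicate 1 edgeR's test passed for *SLC38A2* (adjusted p = 0.0364) and *SLC25A6* (adjusted p = 0.00903). Without 1 library *FDFT1* ran from −0.042 to 0.005, *FN1* from −0.01 to 0.056, *PCNA* from −0.025 to 0.059, *SLC25A6* from −0.012 to 0.123 and *SLC38A2* from −0.09 to 0.07. *FDFT1* was 0.016 with library size alone, 0.003 without sh1-*TUG1* replicate 2 and 0.005 without replicate 3. *FN1* was −0.01 without sh-Con replicate 3, and *HNF4A* was 0.013 with library size alone. *PCNA* was −0.025 without sh-Con replicate 1, −0.006 without sh1-*TUG1* replicate 1 and −0.016 without replicate 3. *SLC25A6* was −0.005 without sh-Con replicate 2 and −0.012 without replicate 3. *SLC38A2* was −0.09 without sh-Con replicate 1 and −0.008 without sh1-*TUG1* replicate 1. The cause was not tested.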

Other observations

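The genes around *TUG1* on chromosome 22 were measured as a list of their own. Of 14 tested, 3 fell (21.4%) and 1 rose, with a median log2(fold change) of −0.103. *PLA2G3*, a secreted phospholipase, was at 5.01, 3.80 and 3.64 CPM in sh-Con and 2.19, 2.01 and 2.58 CPM in sh1-*TUG1* (log2(fold change) −0.88 ± 0.20 (SE), adjusted p = 0.0122). *PES1*, a factor of ribosome assembly, was at 103, 97.6 and 98.8 and 76.5, 79.3 and 83.04 CPM (log2(fold change) −0.33 ± 0.05 (SE), adjusted p = 0.00167), and *SFI1*, a centriole protein whose exons overlap *DRG1*, fell, with a log2 value of −0.28 ± 0.06. *PISD*, a mitochondrial phospholipid enzyme, was the gene that rose (log2(fold change) 0.17 ± 0.05 (SE), adjusted p = 0.0398), and it kept its call without sh-Con replicate 1 but not without any other library. Without sh-Con replicate 1 a count of 5 fell. Adjusted p values are from edgeR.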
